A study of Homo sapiens with 2 samples.

Results

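The genes described here are the histone genes of the replication-dependent clusters, measured in the human colon cancer line HCT116, which is epithelial. They were taken as every gene in the deposited tables whose symbol begins with HIST1H, HIST2H, HIST3H or HIST4H, without 13 symbols whose ending marks a pseudogene, which left 75 of the 56586 genes listed. They are 6 genes for the linker histone H1 and 17 for H2A, 23 for H2B, 14 for H3 and 15 for H4, the core histones. By cluster, 55 belong to HIST1 on chromosome 6, 15 to HIST2 and 4 to HIST3 on chromosome 1, and 1 to HIST4 on chromosome 12. The release 29 annotation of GENCODE calls 70 of the 75 protein-coding and 5 pseudogenes, namely HIST2H2BA, HIST2H2BB, HIST2H2BC, HIST2H2BD and HIST3H2BA.

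RNA was sequenced in 2 libraries of the same untreated line, PJ and PF, which the submitters call biological replicates of a single group; the labels do not explain the letters and name no treatment or genetic change. Levels are in FPKM, fragments scaled to transcript length and to the size of the library, which allows values of different genes to be set side by side, and each has 95% bounds. With 1 library on each side, differences between PJ and PF are given as values with no test. In both libraries 1 FPKM was reached by all 5 epithelial markers and all 6 proliferation and S phase markers examined, among them EPCAM, at 143 FPKM in PJ and 213 in PF, and the replication clamp gene PCNA, at 264 and 457 FPKM. Of 4 fibroblast markers COL1A1 alone passed, and the 4 summed to 2.95 FPKM in PJ and 7.38 in PF; none of 4 immune markers passed in both, and these summed to 1.55 and 0.248.

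Histones package DNA into nucleosomes, and a cell that copies its DNA needs new histones in step with it. Replication-dependent histone genes lie in clusters, lack introns in their basic form, and are transcribed mainly in S phase. Their mRNAs are the known exception among animal mRNAs: they usually end not in a poly(A) tail but in a conserved stem-loop, which is bound by the stem-loop binding protein SLBP and cut with the help of the U7 snRNP. Some cluster genes can also give longer, polyadenylated transcripts. The variant histones, such as those of H2AFZ and H3F3B, are made outside S phase as well, mostly from ordinary polyadenylated mRNAs. The labels name an Illumina TruSeq V2 kit and total RNA. Kits of that name usually begin with selection for poly(A) tails, but the labels state no selection, and how far it set the levels below was not tested.

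The stem-loops are shown because they are the feature that sets these mRNAs apart. In the GENCODE release 29 transcripts, matched by symbol for all 75 genes, the letters GG, 3 bases, TTTT, a base, A, 3 bases and CC on the sense strand, with the first 6 and last 6 of these 16 bases able to pair, were found in 31 genes, or 41.3%, against 43 of 58721 genes of that annotation, or 0.0732%. Many transcript models of the remaining genes stop at or near the stop codon and so cannot show it. The lines below run from 5′ to 3′ as DNA, with the stem-loop in capitals and up to 5 bases on each side. They give 6 of the expressed members, then HIST1H2AE, which was listed at 0 in both libraries, and H2AFX, the gene of the damage-signalling variant H2AX.
HIST1H2AC: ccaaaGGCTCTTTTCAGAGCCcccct
HIST2H2AA3: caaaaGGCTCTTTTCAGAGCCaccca
HIST3H2A: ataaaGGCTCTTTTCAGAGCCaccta
HIST1H2BC: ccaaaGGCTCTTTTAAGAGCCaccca
HIST1H2BD: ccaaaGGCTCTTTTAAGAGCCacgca
HIST1H4J: taaaaGGCCCTTTTCAGGGCCaccct
HIST1H2AE: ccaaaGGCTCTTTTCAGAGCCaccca
H2AFX: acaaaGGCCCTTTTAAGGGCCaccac
The stem sorted with the histone type. All 8 H4 genes with a match carried the stem that begins GGCCC, in 5 genes as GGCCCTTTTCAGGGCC and in 3 as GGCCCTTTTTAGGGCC. The 6 H2A, 12 H2B and 5 H3 genes carried a stem that begins GGCTC, in 18 genes as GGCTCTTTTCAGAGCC and in 5 as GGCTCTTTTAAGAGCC. At 1 FPKM or more in both libraries stood 4 of the 18 genes and 2 of the 5 genes with these forms, and 1 of the 5 and none of the 3 H4 genes. The form of HIST3H2A, among the highest members, is letter for letter that of HIST1H2AE.

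Some transcript models run on past the stem-loop and end near AATAAA, the usual signal for a poly(A) tail. The last 30 bases of 3 models are shown because they are the kind of end that cluster genes share with variant histone genes, with the signal in capitals. The stem-loop of the HIST1H2AC model shown lies 1114 bases before its end. The HIST1H2BD and H2AFZ models shown hold no stem-loop match. The HIST1H2BD match printed above is in another model of that gene.
HIST1H2AC-202: agcctggcatgaggtAATAAAaggtaatgc
HIST1H2BD-201: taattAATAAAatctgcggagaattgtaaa
H2AFZ-201: ggataagttcAATAAAggtcatatcccaaa

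Levels of the cluster genes were low. At 1 FPKM or more in both libraries stood 13 of the 75, or 17.3%, against 27.9% of all symbols and 56.8% of protein-coding symbols. Of members with a span of 1000 bp or less 16.4% passed, against 9.34% of protein-coding symbols of that span, the protein-coding members included. The 16.4% also counts HIST2H2BC and HIST2H2BD, which GENCODE 29 calls pseudogenes and which are not in that background. HIST1H2BK alone reached 10 FPKM in both, and 55 members were under 1 FPKM in both. The median member was at 0.346 FPKM in PJ and 0.377 in PF. Among these 55 were 20 members listed at 0 in both libraries, and 4 of the 5 members listed at 0 in only 1 of them. At 0 in both were 5.81% of all protein-coding symbols and 67.9% of those with a span of 1000 bp or less. All 20 members at 0 are that short. A bulk library does not separate few cells in S phase from little RNA per cell. PF held more of the values above the threshold: 13 members passed in PJ and 20 in PF, while of all symbols 30.3% passed in PJ and 29.8% in PF.

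**Figure D1:**
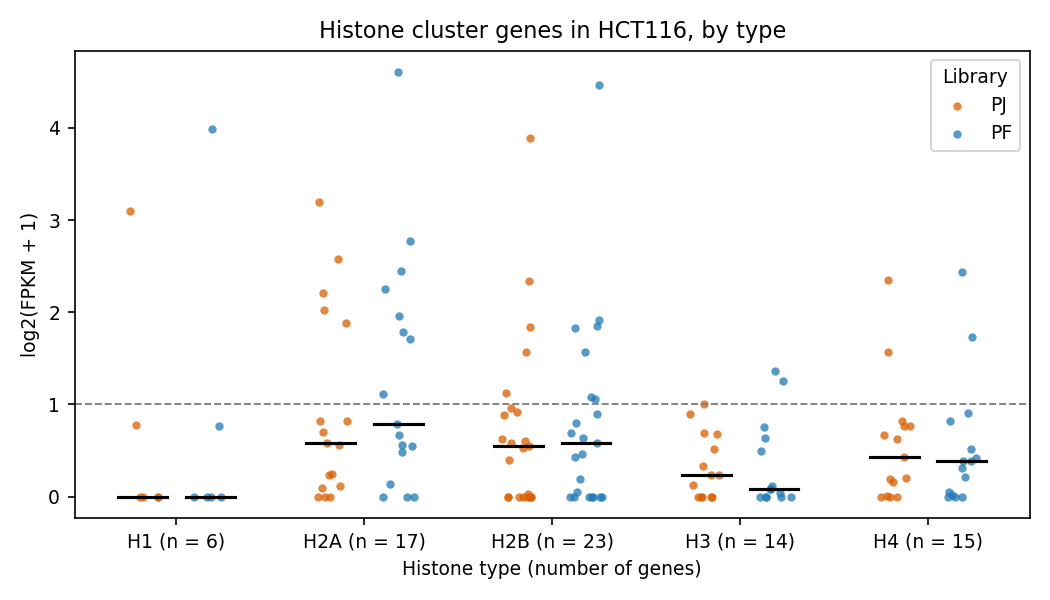
Level of each histone cluster gene as log2(FPKM + 1), by histone type, in library PJ (left, orange) and PF (right, blue); each point is a gene, black lines are medians and the dashed line is 1 FPKM. Most points lie under the line in every type, and no H3 gene is above it in both libraries.

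Linker histone genes were carried by a single member. HIST1H1C (ENSG00000187837.2; hg19 chromosome 6, 26055968 to 26056699), one of the linker genes expressed in most body cells, was at 7.53 FPKM in PJ (bounds 4.73 to 7.07) and 14.8 in PF (9.49 to 12.3). It made up 91.4% of the summed FPKM of the H1 genes in PJ and 95.5% in PF. HIST1H1E followed at 0.708 and 0.697 FPKM. The other 4 were listed at 0 in both libraries: HIST1H1A, HIST1H1B, HIST1H1D and HIST1H1T, of which the last is known as a testis gene.

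H2A genes held 5 of the 13 expressed members. HIST3H2A (ENSG00000181218.4; chromosome 1, 228645065 to 228645560) was the highest, at 8.15 FPKM in PJ (4.04 to 6.57) and 23.3 in PF (11.8 to 15.7), and both estimates lay above their own upper bounds. HIST2H2AC (chromosome 1, 149858525 to 149858961) was at 3.61 FPKM in PJ (1.46 to 3.13) and 5.83 in PF (2.36 to 4.51), with status LOWDATA. It lies wholly inside the deposited span of BOLA1 (149858486 to 149872351), a mitochondrial protein gene at 9.82 FPKM in PJ and 4.61 in PF, so the 2 genes differ between the libraries in opposite directions. HIST2H2AA4 stood at 4.95 FPKM in PJ and 4.45 in PF, and its near-identical copy HIST2H2AA3 at 2.69 and 2.27; how reads were shared between such copies is not known, so these values are uncertain. HIST1H2AC (chromosome 6, 26124373 to 26139336) was at 3.05 FPKM in PJ (2.26 to 3.86) and 3.75 in PF (2.92 to 4.58). Above 1 FPKM in PF alone were HIST1H2AJ (0.470 in PJ and 2.88 in PF), HIST1H2AM (0.766 and 2.46, overlapping HIST1H3J at 0.608 and 0.404) and HIST1H2AI (0.0700 and 1.16). The rest, down to the testis gene HIST1H2AA, HIST1H2AE and HIST1H2AL, listed at 0 in both, were under 1 FPKM in both libraries.

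H2B genes held the highest member by the mean of the libraries, which in PF stood below HIST3H2A. HIST1H2BK (ENSG00000197903.6; chromosome 6, 27106073 to 27114619) was at 13.8 FPKM in PJ (12.3 to 15.4) and 21.0 in PF (19.0 to 23.0), both within their bounds. Even so, 14.0% of all symbols stood higher in PJ and 9.54% in PF. It made up 47.6% of the summed FPKM of H2B genes in PJ and 56.4% in PF. HIST1H4I lies inside its span and was at 0.00351 FPKM in PJ and 0.0322 in PF. HIST1H2BD (chromosome 6, 26158349 to 26171577) was at 4.05 FPKM in PJ (2.32 to 4.24) and 2.78 in PF (1.97 to 3.60), and HIST1H2BC (26115129 to 26124154) at 1.18 (0.664 to 1.69) and 1.96 (1.29 to 2.62). The other expressed members, HIST2H2BD at 2.57 FPKM in PJ and 2.56 in PF and HIST2H2BC at 1.97 and 2.61, are pseudogenes in the newer annotation. The span of HIST1H2BD also covers the pseudogene LARP1P1. HIST1H2BN was near the threshold at 0.891 and 1.08 FPKM, and HIST1H2BL was listed at 0 in PJ and stood at 1.12 in PF. Among the 6 listed at 0 in both were the testis gene HIST1H2BA and HIST1H2BB.

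H3 genes were the lowest core histones, with none of 14 at 1 FPKM in both libraries. HIST1H3A was at 0.259 FPKM in PJ and 1.58 in PF, HIST1H3H at 0.426 and 1.38, HIST1H3D, which overlaps HIST1H2AD, at 0.999 and 0.556, and HIST1H3B at 0.854 and 0.692. HIST1H3A and HIST1H3H therefore passed in PF alone. At 0 in both were HIST1H3C, HIST1H3F, HIST1H3G and HIST1H3I. The summed FPKM of the 14 genes was 4.18 in PJ and 4.84 in PF.

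Of 15 H4 genes only HIST1H4J (chromosome 6, 27791884 to 27792257) and HIST1H4K (27798952 to 27799305) passed. HIST1H4J stood at 4.10 FPKM in PJ (1.34 to 3.35) and 4.41 in PF (1.29 to 3.05), and HIST1H4K at 1.98 (0.515 to 1.87) and 2.32 (0.557 to 1.80). All 4 estimates lay above their own upper bounds. HIST1H4C was at 0.760 FPKM in PJ and 0.334 in PF, and HIST1H4D at 0.140 and 0.879. At 0 in both were HIST1H4F, HIST1H4G and HIST1H4L. Genes of this type encode a nearly invariant protein from highly similar coding sequences, so the division of reads among them is uncertain. Their sum was close in the libraries, at 10.1 FPKM in PJ and 10.2 in PF.

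**Figure D2:**
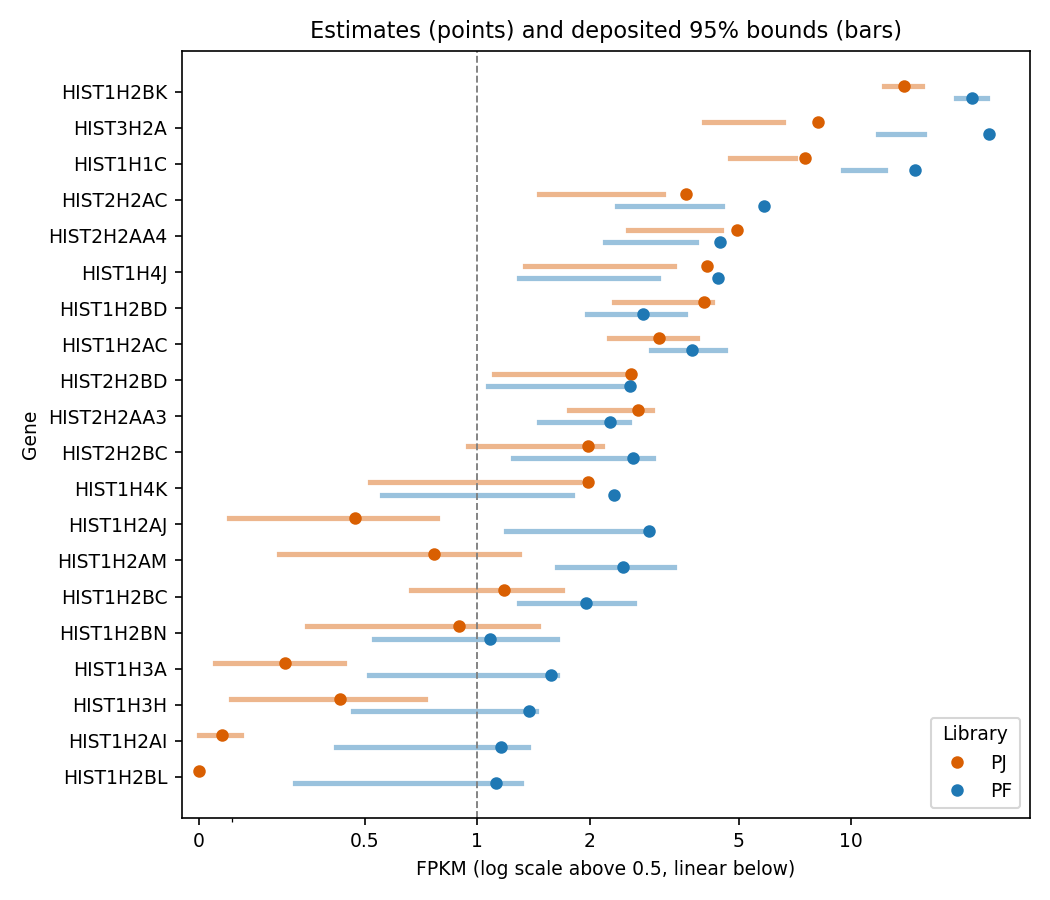
The 20 histone cluster genes at 1 FPKM or more in at least 1 library, with the FPKM estimate (point) and the deposited 95% bounds (bar) in PJ (upper, orange) and PF (lower, blue); the axis is logarithmic above 0.5 FPKM and linear below. HIST1H2BK lies within its bounds, whereas HIST3H2A and HIST1H1C lie to the right of theirs in both libraries.

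Estimates outside their own bounds were concentrated among the expressed members. An estimate above its upper bound was found for 7 members in PJ and 8 in PF, of the 52 and 53 members above 0 there; over all symbols of a single row and a value above 0 the shares were 5.73% in PJ and 6.15% in PF. The 8 genes were HIST1H1C, HIST1H2AJ (in PF only), HIST1H4J, HIST1H4K, HIST2H2AA4, HIST2H2AC, HIST2H2BD and HIST3H2A. All have deposited spans of 1000 bp or less.

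The clusters differed in how their levels were spread. HIST1 had 7 expressed members of 55 (12.7%), HIST2 5 of 15 (33.3%), HIST3 1 of 4 and HIST4 none of 1. Among all symbols the expressed share was 27.9%. The 5 in HIST2 were HIST2H2BC and HIST2H2BD, pseudogenes in GENCODE 29, the near-identical copies HIST2H2AA3 and HIST2H2AA4, and HIST2H2AC. Levels of the copies are uncertain, and HIST2H2AC has status LOWDATA and lies inside the span of BOLA1. Whether the expressed share differs between clusters was not tested. Summed FPKM was 48.6 in PJ and 72.0 in PF for HIST1, 20.1 and 20.2 for HIST2, and 8.62 and 23.8 for HIST3. In HIST3 the gene HIST3H2A made up 94.6% of the sum in PJ and 98.2% in PF; HIST3H2BB was at 0.462 and 0.344 FPKM, the testis gene HIST3H3 was listed at 0 in PJ and at 0.0835 in PF, and HIST3H2BA was listed at 0 in both. HIST4H4, the only gene of its cluster, was at 0.346 FPKM in PJ and 0.763 in PF.

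No HIST2 gene was listed at 0 in either library. Besides the 5 expressed members, HIST2H4A and HIST2H4B were both at 0.705 FPKM in PJ and 0.306 in PF, and HIST2H3A and HIST2H3C both at 0.174 and 0.0610. The genes of each pair are duplicated copies whose values agree to the 3 digits printed, so their levels are uncertain. HIST2H3D stood at 0.596 FPKM in PJ and 0.0284 in PF, HIST2H2BA at 0.546 and 0.499, HIST2H2BE at 0.494 and 0.377, HIST2H2BB at 0.437 and 0.613, HIST2H2BF at 0.313 and 0.145, and HIST2H2AB at 0.189 and 0.0980. HIST2H2BA and HIST2H2BB both span 381 bp and have the same bounds in PJ, 0.0598 to 0.777 FPKM. Whether they shared reads is not known, so their levels are uncertain as well.

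Within HIST1 the widest interval between neighbouring members, 808 kb, lies between HIST1H4H (0.594 FPKM in PJ and 0.0103 in PF) and HIST1H2BJ (0.840 and 0.864). Before it 4 of 34 members were expressed and 15 were listed at 0 in both libraries; after it 3 of 21 were expressed and 4 were listed at 0 in both. Protein-coding genes of other kinds between the first and the last HIST1 member were expressed in 11 of 19 cases, or 57.9%. The share of all protein-coding symbols was close, at 56.8%. Highest of the 19 were the chromatin protein gene HMGN4, at 47.3 FPKM in PJ and 43.1 in PF, and ABT1, for ribosome assembly, at 26.0 and 17.7.

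**Figure D3:**
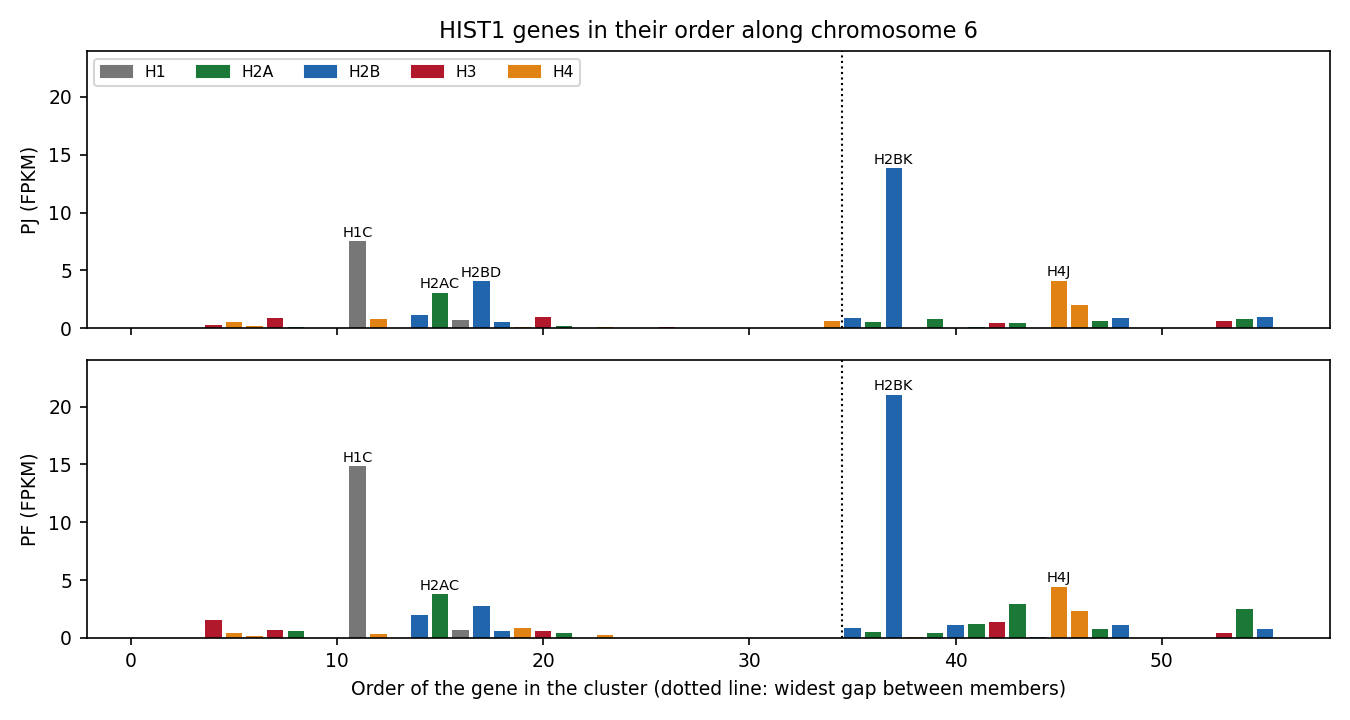
FPKM of the 55 HIST1 genes in PJ (top) and PF (bottom), in their order along chromosome 6 and coloured by histone type; the dotted line marks the widest interval between members. The bars of HIST1H1C and HIST1H2BK stand high above low neighbours on both sides in both libraries.

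Gene span, taken from the deposited coordinates, was compared next because a long span marks a gene with annotated transcripts beyond the short intronless form. Of 20 members that span more than 1000 bp, 4 were expressed (20%) and none was listed at 0 in both libraries. Of 55 members at or under 1000 bp, 9 were expressed (16.4%) and 20 were listed at 0 in both. Short genes were often at 0 in these tables. Among the 471 protein-coding symbols with a span of 1000 bp or less, 9.34% were at 1 FPKM or more in both and 67.9% were listed at 0 in both. These 471 include the protein-coding members but not the 5 that GENCODE 29 calls pseudogenes, all of which are that short. Of the longer protein-coding symbols 58% were at 1 FPKM or more in both and 4.26% were listed at 0. The 4 long expressed members were HIST1H2AC, HIST1H2BC, HIST1H2BD and HIST1H2BK, all in HIST1 and none of them an H3 or H4 gene. A long span did not go with a high level in every case: HIST2H2BF, with the longest span, 29684 bp, stayed at 0.313 and 0.145 FPKM.

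**Figure D4:**
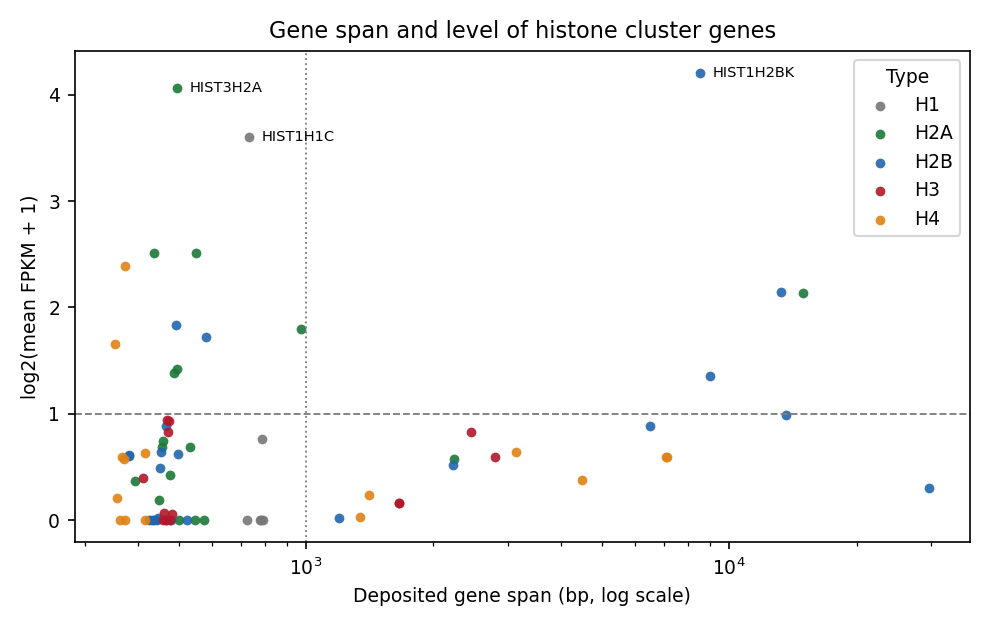
Deposited gene span (log axis) against log2(mean FPKM + 1) of the 75 histone cluster genes, coloured by type; the dotted line is 1000 bp and the dashed line a mean of 1 FPKM. No gene at exactly 0 lies to the right of the dotted line, while the 3 highest genes lie on both sides of it.

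The form of the annotated 3′ end was set beside the levels in the same way, with both features chosen after values were seen. Of 31 members with a stem-loop in a transcript model 7 were expressed (22.6%), against 6 of 44 without (13.6%). Of 24 members with a model that has AATAAA within its last 40 bases 7 were expressed (29.2%), against 6 of 51 without (11.8%). HIST1H4J, among these 7, has AATAAA before its stem-loop, which lies 6 bases from the end of the model. HIST1H2BK and HIST1H1C, which are among the 3 highest, had neither feature, as their models there end with the coding sequence. The models come from a newer annotation than the deposited values, in which 38 of the 75 identifiers recur.

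Promoters were available for 65 members from RefSeq (GRCh38.p14; 250 bases before to 50 after the start). The TATA box letters TATAAA, searched on both strands, were in 66.2% of them, against 12.0% of all 27305 promoters of the table. CCAAT was in 84.6%, against 35.7% of all. The octamer ATTTGCAT, known as the OCT1 site of H2B promoters, was in 26 of the 65, against 1.80% of all, and it sorted with type: it was in 14 of 18 H2B and 11 of 16 H2A promoters, in 1 of 12 H3 (HIST1H3D, whose window is also that of HIST1H2AD) and in none of 6 H1 or 13 H4 promoters. CCAAT was in all H1, H2A, H2B and H3 promoters and in 3 of 13 H4 promoters. In none of the 65 promoters did matches of different motifs share a base, and a match is a description of the sequence. Head-to-head genes, described next, share part of their windows, so these counts are not of independent sequences. By level the shares lay closer: the octamer was in 36.4% of 11 expressed and 40.7% of 54 other members, and TATAAA in 81.8% and 63.0%.

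Many H2A and H2B genes stand head to head and share the stretch between them. Promoter windows on opposite strands overlapped in 12 pairs of members at 11 places, since HIST1H2AD and HIST1H3D have the same window and both pair with HIST1H2BF. In 1 pair both genes were expressed, HIST1H2BC and HIST1H2AC; in 2 pairs 1 gene was, and in 9 neither. HIST1H2BL and HIST1H2AI, a pair, were both near 0 in PJ and just above 1 FPKM in PF, whereas of HIST1H2AJ and HIST1H2BM the first was at 0.470 FPKM in PJ and 2.88 in PF and the second at 0 and 0.0321. The shared window of the first pair is shown as an example that carries all 3 motifs, in capitals, on the strand of HIST1H2AC (GRCh38.p14, chr6:26123922-26124221, plus strand).
HIST1H2AC: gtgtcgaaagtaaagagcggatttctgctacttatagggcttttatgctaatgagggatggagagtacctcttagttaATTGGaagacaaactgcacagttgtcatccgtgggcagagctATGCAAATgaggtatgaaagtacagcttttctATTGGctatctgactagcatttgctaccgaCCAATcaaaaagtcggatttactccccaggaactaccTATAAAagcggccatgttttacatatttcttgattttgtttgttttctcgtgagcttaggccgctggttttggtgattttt
The window of HIST3H2A is shown because the FPKM of its pair lay farthest apart as a difference (chr1:228457824-228458123, minus strand, same build). HIST3H2A had 8.15 FPKM in PJ and 23.3 in PF, while its partner HIST3H2BB had 0.462 and 0.344. This window holds CCAAT on both strands but neither TATAAA nor ATTTGCAT.
HIST3H2A: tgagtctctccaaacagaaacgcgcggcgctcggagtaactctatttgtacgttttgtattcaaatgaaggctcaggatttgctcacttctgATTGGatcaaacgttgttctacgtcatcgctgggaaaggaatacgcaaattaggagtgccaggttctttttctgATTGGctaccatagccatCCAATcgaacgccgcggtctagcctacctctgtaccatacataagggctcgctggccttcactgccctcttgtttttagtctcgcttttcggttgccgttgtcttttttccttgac
The other pair with 1 expressed gene was HIST2H2AC, given above, with HIST2H2BE at 0.494 and 0.377 FPKM; HIST2H2AC overlaps BOLA1, as stated.

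Set beside other histone genes, the cluster genes were far lower. Of 20 variant histone genes 11, or 55%, passed the threshold in both libraries, close to the 56.8% of all protein-coding symbols. They were led by H3F3B, at 922 FPKM in PJ and 1327 in PF, H2AFZ, at 601 and 535, H2AFX, at 188 and 257, and H2AFY, the macroH2A gene, at 209 and 224. The lowest of the 20 was HILS1, a spermatid gene, listed at 0 in PJ and at 3.00e-39 in PF. The 75 cluster genes summed to 77.7 FPKM in PJ and 117 in PF, against 2477 and 3019 for the 20 variant genes, which is 31.9 times as much in PJ and 25.9 times in PF. For H3 the cluster genes made up 0.374% of the class in PJ and 0.304% in PF, for H2A 2.19% and 3.99%, and for H1 4.03% and 5.77%. For H2B the list held only 2 variant genes, H2BFWT and H2BFM, together at 0.0352 FPKM in PJ and 0.0109 in PF. The H2B cluster genes summed to 29.1 FPKM in PJ and 37.3 in PF. This comparison rests on the choice of those 2 variant genes. Variant mRNAs are mostly polyadenylated and cluster mRNAs mostly are not. How far a selection for poly(A) tails set these sums and shares was not tested. In each library 5 of the 20 variant estimates lay above their own upper bounds, H2AFZ among them. Among the variant genes H2AFJ differed most between the libraries, at 0.420 FPKM in PJ and 11.7 in PF, and CENPA, the centromeric H3, was at 38.3 and 18.6. H2AFX carries the stem-loop shown above and also has models that run on for at least 821 bases after it; its level exceeded that of every cluster gene in both libraries.

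The genes that make and end histone mRNAs were nearly all expressed. Of 33 measured factors 32, or 97%, passed the threshold in both libraries, against 56.8% of all protein-coding symbols. SLBP, which binds the stem-loop, was the highest, at 138 FPKM in PJ and 190 in PF, ahead of SRRT, a cap-complex partner, at 95.7 and 118, the S phase kinase gene CDK2, at 80.5 and 81.0, and the transcription factor gene YY1, at 72.7 and 66.5. NPAT, the coactivator of histone transcription, was among those that passed. LSM10 and LSM11, subunits of the U7 snRNP, stood at 55.2 and 3.52 FPKM in PJ and 27.4 and 0.794 in PF; LSM11 was the lowest of the list in PF and by mean, and the one that missed the threshold. ERI1, an exonuclease that trims histone mRNA ends, was at 15.7 FPKM in PJ and 36.5 in PF, and was the only factor at least 2-fold lower in PJ. At least 2-fold higher in PJ were 5 factors: CBX7, CSTF2T, HINFP, LSM11 and ZNF473.

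All 22 genes for histone chaperones and deposition factors passed, against 56.8% of all protein-coding symbols. The 4 highest by mean included NAP1L1, at 204 FPKM in PJ and 216 in PF, and SSRP1, a subunit of FACT, at 226 and 181. NASP, the chaperone of H3 and H4 stores, was at 166 and 241 FPKM, the replicative helicase subunit MCM2, which also binds H3 and H4, at 97.2 and 123, and the lowest by mean, ASF1A, at 15.5 and 12.9. Medians of the 3 lists were 35.4 FPKM in PJ and 28.9 in PF for variant histones, 22.3 and 23.5 for the mRNA factors, and 58.6 and 56.7 for the chaperones.

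**Figure D5:**
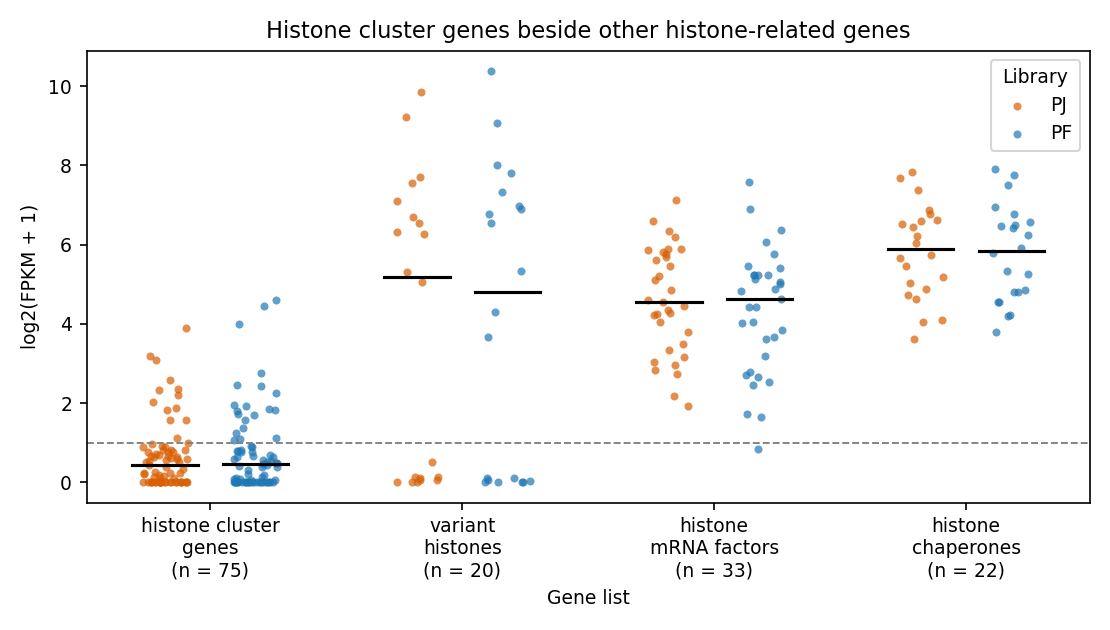
Levels as log2(FPKM + 1) in PJ (left, orange) and PF (right, blue) of the 75 histone cluster genes, 20 variant histone genes, 33 histone mRNA factors and 22 histone chaperones; black lines are medians and the dashed line is 1 FPKM. The variant genes form a high group and a group near 0, and all chaperones lie above all but a few of the cluster genes.

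Between the libraries, expressed cluster genes were more often lower than higher in PJ. Differences are log2 ratios of PJ over PF, on FPKM plus 1, among members whose mean reached 1 FPKM. Of 15 such members 11 were lower in PJ, against 34.2% of 15736 symbols with that mean. HIST1H2AJ and HIST1H2AM, among the 11, reached 1 FPKM in PF alone and so entered through the library in which they were higher. The median log2 ratio of the 15 members was -0.28, against 0.22 over those symbols. With no filter on low values the median of the members was 0. At least 2-fold lower were HIST3H2A, with a log2 ratio of -1.41, and HIST1H2AJ, with -1.40; none was 2-fold higher. For comparison, 5.22% of those 15736 symbols were 2-fold or more lower in PJ and 10.4% 2-fold or more higher. For 8 of the 75 members the deposited bounds did not overlap, and all 8 were lower in PJ; over 51237 symbols of a single row, 7.01% had bounds apart and were lower in PJ, and 15.1% had them apart and were higher. The 8 genes were HIST1H1C, HIST1H2AI, HIST1H2AJ, HIST1H2AM, HIST1H2BK, HIST1H2BL, HIST1H3A and HIST3H2A. Of these, HIST1H2AI, HIST1H2BL and HIST1H3A had a mean under 1 FPKM. The estimates of HIST1H1C and HIST3H2A in both libraries, and of HIST1H2AJ in PF, lay above their own upper bounds. Such bounds hold for each library by itself and say nothing of how much cultures vary. With the overall shift between the libraries divided out, HIST1H1C and HIST1H2AM were at least 2-fold lower as well. Of the 6 proliferation and S phase markers 5 were lower in PJ, PCNA most of all, while RRM2, for nucleotide synthesis, was at 198 FPKM in PJ and 151 in PF. Of the 5 epithelial markers 4 were lower in PJ, among them the E-cadherin gene CDH1, at 1.80 FPKM in PJ and 21.9 in PF, and KRT8, at 280 and 760; the 5 summed to 896 and 1518 FPKM, and their part in these differences was not tested. Whether the share of cells in S phase differed between the cultures was not tested.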

How the data were processed

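RNA from 2 cultures of HCT116 was sequenced as paired-end reads, per the labels. Per the submitters' processing notes, TopHat2 2.0.8b and Cufflinks were used with hg19; which Cufflinks version and which annotation is not given in the sources used here. Per the file headers, the authors' tables hold FPKM per gene, a status and 95% bounds. The depth is unknown. The deposited spans of 15 of the 75 members overlap another gene. The kit is not stated to keep strand, so reads cannot be assigned with certainty where the transcripts of such genes overlap.

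Estimates of status FAIL, 20 in PJ and 23 in PF, were treated as missing; none was a member. Rows that share a symbol were summed, giving 51609 symbols. Starts are counted from 1. The pseudocount was 1, and no p-value was computed. Transcripts and promoters came from GENCODE 29 and RefSeq (GRCh38), matched by symbol.

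The members and lists were chosen with earlier results of these data known. Genes were named by rule: the highest 4 and the lowest of each histone type and list, all members of the smaller clusters, and all past 1 FPKM or 2-fold. Cluster neighbours, overlapping genes, pairs, NPAT, LSM10, ERI1, H2AFJ, CENPA and single markers were chosen after their values were seen. Of 35 listed mRNA factor symbols, ARS2 and PAPD1 had no row under those names. Alternatives were other thresholds, pseudocounts, filters, span limits and each library alone. The script that counts 2-fold differences was checked on simulated libraries. Python 3.11.15, numpy 2.4.6 and pandas 2.3.3 were used.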

Additional observations from a re-analysis of the deposited data

How the results depend on the processing

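The number of expressed members, 13, became 22 at a threshold of 0.5 FPKM and 3 at 5 FPKM, and ran from 13 to 20 with 1 library left out. It lay between 10 and 14 when the lower bound had to pass, LOWDATA or FAIL estimates were handled otherwise, or pseudogenes were all kept or all dropped. The 2 members at least 2-fold apart became 5 with no filter on low values, 1 at a mean of 5 FPKM and 4 with the median ratio divided out; HIST3H2A was among them under each of these settings. The median log2 ratio was -0.39 with a pseudocount of 0.1, 0 with no filter and -0.44 with the median ratio divided out. Without the highest member of each type the mean summed FPKM became 0.702 for H1 (main value 11.9), 21.7 for H2A (37.5), 15.8 for H2B (33.2), 3.59 for H3 (4.51) and 5.90 for H4 (10.2). With 1 library left out the sums ran from 8.24 to 15.5 for H1, 26.1 to 48.9 for H2A, 29.1 to 37.3 for H2B, 4.18 to 4.84 for H3 and 10.1 to 10.2 for H4. At 0.5 FPKM the expressed members were 7 over 1000 bp and 15 at or under it; with 1 library left out they ran from 4 to 5 and from 9 to 15. With 1 library left out, expressed variant histones ran from 11 to 12, mRNA factors from 32 to 33 and chaperones stayed at 22. The cause of these shifts was not tested. No paired analysis was possible because the libraries form a single group. The depth is unknown, so for members listed at 0 no detection limit can be given.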

Other observations

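Of the 13 pseudogene symbols left out, 9 were listed at 0 in both libraries and 1 passed the threshold: HIST1H1PS1, at 1.95 FPKM in PJ (bounds 0 to 0.995) and 1.24 in PF (0 to 0.745), above its upper bound in both. HIST2H3PS2, which GENCODE 29 calls protein-coding, was at 0.365 FPKM in PJ and 0.192 in PF.

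A few RNAs that are known to lack a poly(A) tail were looked up after the levels of the cluster genes were seen. RN7SK, which holds the transcription kinase P-TEFb inactive, was at 11.5 FPKM in PJ (3.51 to 6.75) and 4.37 in PF (0.993 to 2.72). RMRP, of RNase MRP, stood at 9.74 and 10.3 FPKM, RPPH1, of RNase P, at 3.87 and 5.99, and RN7SL2 and RN7SL1, of the signal recognition particle, at 43.3 and 6.50 FPKM in PJ and at 54.7 and 0.00317 in PF. The telomerase RNA gene TERC was at 2.35 FPKM in PJ and 14.6 in PF. RNU7-1, for the U7 snRNA itself, spans only 63 bp and was listed at 0 in both. These genes are short, and 5 of the 7 looked up had an estimate above its upper bound in PJ and 5 in PF.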
